A study of Mus musculus with 24 samples.

Results

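The 10 transcripts examined here are best known from white adipocytes, and they were followed through macrophages sorted from the epididymal fat of obese male C57BL/6J mice. They were chosen by symbol (Adipoq, Car3, Cidec, Plin1, Plin4, Lep, Cyp2e1, Cfd, Fabp4 and Retn), and all 10 had a row among the 21063 gene rows that the 2 deposited count tables share. The choice rested on measured values of these libraries, among them the cold effect in M2 cells, and it is not recorded which other comparisons entered it. The cold effect in M2 cells and its difference from that in M1 cells are therefore given as a description: genes past the threshold are counted beside the share of all genes, but no member's p is given and nothing is read from the counts. Likewise the p-values of the other comparisons describe these libraries and support no choice of members.

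There were 24 libraries in 8 groups of 3. Cold M1, Cold M2 and Cold progenitors came from mice harvested on day 14, after 7 days of adaptation at 18 °C and 7 days at 4 °C. bFKB1 M1 and bFKB1 M2 came from mice harvested 8 days after 10 mg/kg bFKB1, an antibody that mimics the hormone FGF21, given intraperitoneally at thermoneutrality. Warm M1, Warm M2 and Warm progenitors came from mice held at 29 to 30 °C. Every group was on a high-fat diet and weighed 38 to 42 g at 18 to 20 weeks of age, and for Cold and Warm the diet is stated to begin at 6 weeks. Each Cold and Warm library pooled the sorted cells of 5 mice, while pooling is not stated for bFKB1. The labels give no sorting gates and name no vehicle group, and the bFKB1 libraries stand in a table of their own, so that the antibody and the table cannot be told apart. They name no separate cultures or repeats of an animal either, so p-values measure the spread between these pools.

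White adipocytes store triglyceride in a large lipid droplet coated with perilipins and secrete hormones and enzymes into the blood. Adipose tissue macrophages lie between them, take up lipid and debris from them, and carry some lipid-handling genes of their own. Adipose progenitors are the fibroblast-like precursors of adipocytes and are sorted from the same digest.

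Library totals ran from 14.4 to 34.6 M counts, and 3 counts, taken as the limit that a count of 0 allows, equalled 0.0867 to 0.209 CPM, counts per 1000000 counts of the library. Limits of this kind cover counting error only. The macrophage label held: the summed level of 10 macrophage markers was 11000 to 26500 CPM in macrophage libraries, against 61.3 to 408 CPM in progenitor libraries, and no marker was at 0. No pair of libraries was identical. The 3 Cold M1 libraries stood apart in progenitor RNA. The progenitor share was estimated as the median over 17 progenitor markers, scaled to the mean of Cold and Warm progenitors. It was 39.5%, 19.4% and 13.4% in Cold M1 libraries 1, 2 and 3. It was 2.46% to 8.86% in bFKB1 M1, 2.12% to 7.54% in Warm M1 and 1.1% to 2.71% in the 9 M2 libraries. Single markers gave 14.3% to 58.4%, 6.55% to 42.9% and 5.47% to 38% in Cold M1 libraries 1, 2 and 3. In Warm M1 library 1 they gave 0.991% to 44.4%. Levels expected from progenitors below rest on the median and carry this spread.

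RefSeq's promoter table (build GRCm38.p6) held 8 of the 10 genes, all but Car3 and Fabp4. The stretches before the start sites of the 4 secreted members are shown because their transcripts took different courses below: Cfd and Adipoq rose in the cold, Lep fell, and Retn passed the threshold in the cold in neither population. Each reads 5′ to 3′ on the gene's own strand, and all 4 genes lie on the plus strand. Bases that GENCODE M21 annotates as transcribed were left out. Capitals mark CCAAT or its reverse complement in Adipoq, and TTGCGCAA, a palindrome that C/EBP factors can bind, in Lep. The stretches lie at chr10:79890733-79890852 (Cfd), chr16:23146416-23146535 (Adipoq), chr6:29060100-29060219 (Lep) and chr8:3655650-3655769 (Retn).
Cfd: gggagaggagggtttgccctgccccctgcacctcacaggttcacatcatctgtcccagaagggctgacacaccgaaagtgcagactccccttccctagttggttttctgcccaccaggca
Adipoq: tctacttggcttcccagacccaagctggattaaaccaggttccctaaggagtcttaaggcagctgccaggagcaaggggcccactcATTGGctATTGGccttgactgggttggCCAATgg
Lep: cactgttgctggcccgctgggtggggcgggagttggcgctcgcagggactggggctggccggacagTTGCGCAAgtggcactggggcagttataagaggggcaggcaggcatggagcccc
Retn: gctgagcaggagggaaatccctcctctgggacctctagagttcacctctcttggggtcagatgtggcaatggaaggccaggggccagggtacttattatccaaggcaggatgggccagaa

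In the 250 bases before the start site, searched on both strands, CCAAT occurred in Adipoq, Cyp2e1 and Plin4, and in 33.8% of 32851 RefSeq promoters. TTGCGCAA occurred in Lep alone of the 8 genes and in 0.164% of all promoters. TATAAA was found in Cyp2e1 and in 12.4% of all, while AGGTCA, a short element that many nuclear receptors bind, was found in none of the 8 and in 14.0% of all. A match describes letters and not a bound site.

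The members were low in every macrophage group apart from Fabp4. Without Fabp4 the other 9 summed to 85.6 ± 11.4 CPM in Cold M2, 23.6 ± 6.71 in bFKB1 M2 and 44.7 ± 11.9 in Warm M2 (SD, n = 3 each). In M1 the same sum was 38.3 ± 4.60 CPM in Cold, 10.8 ± 3.15 in bFKB1 and 14.4 ± 0.551 in Warm. In progenitors it was 35.2 ± 12.1 CPM in Cold and 16.4 ± 0.436 in Warm. The mean sum was higher in Cold and lower with bFKB1 than in Warm in both macrophage populations. The libraries of Cold and Warm did not overlap in either, while those of bFKB1 and Warm overlapped in both. In M1 they ran from 8.64 to 14.4 CPM with bFKB1 and 13.9 to 15.0 in Warm. In M2 they ran from 19.3 to 31.3 CPM with bFKB1 and 31.1 to 53.5 in Warm.

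Mean CPM was also divided by the kilobases that all annotated exons of a gene cover together. For Fabp4 this length, 4489 bases, is the whole span of the gene, so its value is a low estimate. Folds between genes on this scale are therefore rough. On it Fabp4 came first in every group and Car3 second in every macrophage group. Warm M2 held 39.4 CPM per kb of Fabp4, 7.02 of Car3, 3.96 of Cidec, 2.56 of Cfd and 2.52 of Adipoq. In Cold M2 the order of the next genes was Cfd at 9.32, Adipoq at 5.70 and Cidec at 5.19 CPM per kb. Lep was the lowest member in both progenitor groups and in 3 of the 6 macrophage groups, Cold M1, bFKB1 M1 and Cold M2.

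**Figure D1:**
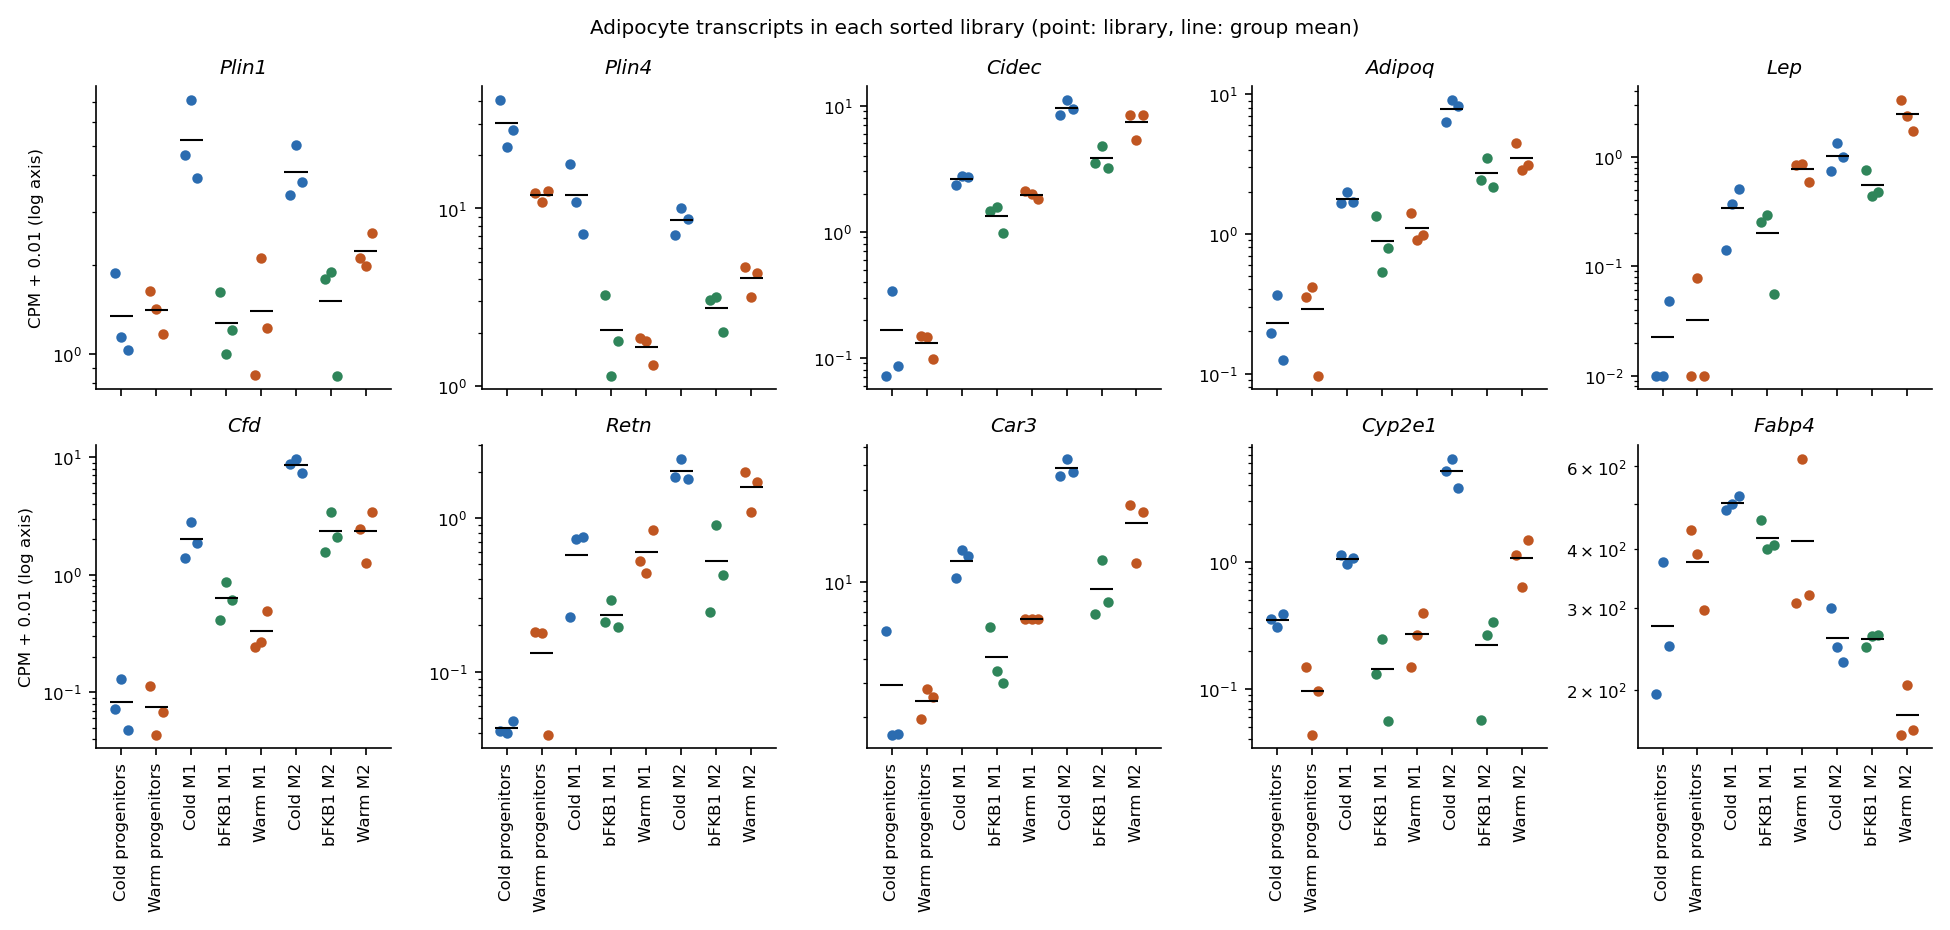
Levels of the 10 members in each library (y axis: CPM + 0.01, log axis, scaled for each gene; x axis: the 8 groups; points: libraries; lines: group means). Lep is highest in Warm M2 at 2.47 CPM, the other 9 members have higher means in Cold M2 than in Warm M2, and Plin4 reaches its highest mean, 30.1 CPM, in Cold progenitors.

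M1 and M2 cells of Warm mice differed in their adipocyte transcripts. Of 10 members, 8 were lower and 1 was higher in M1 by edgeR's quasi-likelihood test at an adjusted p under 0.05, where 45.2% of the 12981 genes tested were called, 22.8% lower and 22.5% higher in M1. Libraries of the groups lay apart for the same number in each direction, 8 lower and 1 higher, where 22.6% of all genes lay apart lower and 37% higher in M1. The median log2 fold change of the members was -1.75, against 0.04 over all genes tested. Fold changes below are on the log2 scale, with an approximate SE taken from the F statistic. Deviations of same-numbered Warm M1 and Warm M2 libraries correlated weakly, at 0.17, 0.32 and 0.23, which does not show that the numbers pair the samples. As a check, the replicate number was used as a block. Plin1 was then called as well, with a fold change of -0.83 (adjusted p = 0.0376), against -0.76 (adjusted p = 0.0782) without the block.

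Among the secreted members, Cfd, or adipsin, the complement factor D that adipocytes release, stood at 0.233, 0.257 and 0.484 CPM in Warm M1, against 2.44, 1.24 and 3.40 CPM in Warm M2. The Warm M1 values rest on 5, 6 and 10 counts. The fold change of Cfd was -2.94 ± 0.44 (SE, adjusted p = 0.00027). Adipoq, which encodes the insulin-sensitising hormone adiponectin, had 1.40, 0.899 and 0.969 CPM in Warm M1, against 4.50, 2.85 and 3.11 CPM in Warm M2 (-1.77 ± 0.25, adjusted p = 0.000165). For both genes every Warm M1 library lay below every Warm M2 library. Lep, the satiety hormone leptin, had a fold change of -1.79 ± 0.37 (adjusted p = 0.0024), and Retn, the hormone resistin, one of -1.53 ± 0.42 (adjusted p = 0.0112).

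The droplet proteins and enzymes went the same way. Cidec, which enlarges lipid droplets by fusing them, had 2.10, 1.97 and 1.79 CPM in Warm M1, against 8.36, 5.33 and 8.38 CPM in Warm M2 (-2 ± 0.19, adjusted p = 1.16e-05). Car3, a cytosolic carbonic anhydrase abundant in adipocytes, had a fold change of -1.74 ± 0.23, Cyp2e1, a cytochrome P450 best known from liver, one of -2.10 ± 0.42, and Plin4, a perilipin of small droplets, one of -1.38 ± 0.34. Fabp4, the fatty acid carrier aP2 of adipocytes and macrophages, was the exception.

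Fabp4 had 307, 623 and 319 CPM in Warm M1, against 161, 205 and 165 CPM in Warm M2. Every M1 library lay above every M2 library, with a fold change of 1.13 ± 0.21 (adjusted p = 0.00127). Its relative Fabp5 also averaged more in M1, with 898 to 1401 counts in Warm M1 libraries and 274 to 379 in Warm M2 libraries, and the 2 genes' transcripts share no run of 30 bases. Fabp4 at these levels, and in M1 above M2, does not follow the other 9, so its name as an adipocyte transcript does not describe its pattern in these sorts. Of 28 other adipocyte genes, 23 passed the count filter, and 8 of these were higher in M1 and 7 lower, their median being -0.08. The smallest p-values fell to Fasn (0.91), Acaca (0.83), Lpl (1.35) and Pparg (1.08), all higher in M1. Fasn and Acaca make fatty acids, Lpl frees them from lipoproteins, and Pparg is a lipid-sensing transcription factor that macrophages also use. Endothelial markers summed to 107 to 382 CPM in Warm M1, against 71.8 to 95.7 CPM in Warm M2, and 5 of 8 were higher in M1, as were 2 of 7 mast cell markers tested and 2 of 2 T and NK cell markers tested. The part of these cells in the members' levels was not tested.

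Beside progenitors, macrophages were the richer in most members. Between Warm progenitors and Warm M2, 7 members were lower and 2 higher in progenitors, where 81.6% of 13687 genes were called, 39.5% lower and 42.1% higher. Libraries lay apart for 8 members lower and 2 higher, where 48.2% and 34.6% of all genes did. Between Warm progenitors and Warm M1, 6 were lower and 1 higher, where 81.9% were called, 39.3% lower and 42.7% higher, and libraries lay apart for 7 lower and 1 higher, where 50.9% and 32.3% of all genes did. Lep had 0, 2 and 0 counts in Warm progenitors and 0, 0 and 1 in Cold progenitors, under the limit that a count of 0 allows. Cfd had 3, 1 and 2 counts and Cidec 4, 4 and 3 counts in Warm progenitors, so no fold is given for these genes.

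Plin4 ran the other way. It had 12.2, 10.8 and 12.6 CPM in Warm progenitors, against 1.87, 1.8 and 1.31 CPM in Warm M1 and 4.69, 3.16 and 4.30 CPM in Warm M2. No Warm progenitor library overlapped a Warm macrophage one, with fold changes of 3.20 ± 0.34 against M1 (adjusted p = 3.09e-07) and 1.81 ± 0.31 against M2 (adjusted p = 5.32e-05). Fabp4 had 440, 390 and 297 CPM in Warm progenitors, and was called against Warm M2 (1.34 ± 0.26, adjusted p = 0.000181) but not against Warm M1 (0.22 ± 0.25, adjusted p = 0.428). The list of other adipocyte genes split as well: Ces1d, a carboxylesterase, and G0s2, an inhibitor of the lipase Pnpla2, were higher in progenitors than in either macrophage population, while Cebpa and Pnpla2 were lower. Against Warm M2, 7 of the 23 genes tested were higher and 10 lower in progenitors, and against Warm M1 8 were higher and 13 lower.

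Every Cold M2 library held more Plin1, Plin4, Cidec, Adipoq, Cfd, Car3, Cyp2e1 and Fabp4 RNA than every Warm M2 library. Lep lay apart the other way, and Retn overlapped. As this contrast entered the choice of members, the counts that follow describe them and nothing is read from them. Past the threshold were 5 members, Cfd, Adipoq, Car3 and Cyp2e1 higher and Lep lower. Of 12981 genes 10.1% passed it, 4.41% higher and 5.69% lower. Libraries lay apart for 8 members higher and 1 lower, where 27.6% and 12.4% of all genes did. The median fold change of the members was 0.84, against 0 over all genes tested.

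Cfd had 8.76, 9.67 and 7.33 CPM in Cold M2, against 2.44, 1.24 and 3.40 CPM in Warm M2, with a fold change of 1.79 ± 0.34. Cyp2e1 had 5.17, 6.47 and 3.83 CPM in Cold M2, against 1.12, 0.621 and 1.47 CPM in Warm M2 (2.19 ± 0.33). Car3 had 35.3, 43.3 and 37.2 CPM in Cold M2, against 25.0, 12.5 and 22.9 CPM in Warm M2 (0.87 ± 0.21). The groups did not overlap for these 3 genes, and Warm M2 library 2 was the lowest of its group in each. Adipoq had 6.33, 9.11 and 8.19 CPM in Cold M2, against 4.50, 2.85 and 3.11 CPM in Warm M2 (1.10 ± 0.22).

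Lep went against the others, with 0.727, 1.32 and 0.991 CPM in Cold M2 and 3.32, 2.38 and 1.70 CPM in Warm M2, a fold change of -1.37 ± 0.37. Its counts were 15 to 19 in Cold M2 libraries and 30 to 68 in Warm M2 libraries. Plin1 (0.81 ± 0.31), Plin4 (1.01 ± 0.31), Cidec (0.32 ± 0.18), Fabp4 (0.48 ± 0.21) and Retn (0.26 ± 0.38) did not pass the threshold, although for the first 4 of them every Cold M2 library lay above every Warm M2 library. DESeq2 called Plin4 as well (1.02), where it called 1753 of 12981 genes. Calls fell with 1 library left out, for members and for all genes. Without Cold M2 library 2 the call of 5 members became 2, and that of 1312 genes became 580. Without Cold M2 library 3 or Warm M2 library 2 the members called became 3, and the genes called 721 and 531. Lep did not pass without any one of the libraries other than Warm M2 library 3.

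Of the 23 other adipocyte genes tested, 4 were higher in Cold M2 and 1 was lower. Pck1, the enzyme that makes glycerol backbones for fat storage, averaged 6.15 CPM in Cold M2 and 1.28 CPM in Warm M2 (2.19 ± 0.40), and Ces1d 3.86 CPM in Cold M2 and 1.06 CPM in Warm M2 (1.79 ± 0.37). Scd1, a fatty acid desaturase, changed by 1.15 ± 0.25. Fasn was the gene that fell (-0.77 ± 0.14), with 34.3 CPM in Cold M2 and 56 CPM in Warm M2. The 7 brown and beige adipocyte markers summed to 7.99 to 9.58 CPM in Cold M2 and 7.20 to 10.0 CPM in Warm M2, and Cidea had no count in any Cold M2 library.

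Markers of other cells moved beside these values. Mast cell markers summed to 14.1 to 23.2 CPM in Cold M2, against 2.21 to 3.78 CPM in Warm M2, and 4 of the 7 tested were higher. Progenitor markers summed to less in Cold M2 (1280 to 2060 CPM) than in Warm M2 (2150 to 3820 CPM), and hepatocyte markers to 0.139 to 0.342 CPM in Cold M2 and 0.196 to 1.13 CPM in Warm M2, with 7 of 8 at 0 in every Cold M2 library. Endothelial markers summed to 99.6 to 141 CPM in Cold M2, against 71.8 to 95.7 CPM in Warm M2, with none of 8 called, and mesothelial markers to 2.78 to 5.7 CPM in Cold M2, against 1.86 to 2.64 CPM in Warm M2, with 1 of 4 tested higher. The part of these cells in the members' levels was not tested. In bulk RNA a larger number of cells carrying a transcript and more of it per cell cannot be told apart.

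Cold M1 libraries were called higher than Warm M1 libraries in Plin1, Plin4, Adipoq, Cfd, Car3 and Cyp2e1 RNA, and lower in Lep RNA. That is 6 members higher and 1 lower, where 43.9% of 12981 genes were called, 22.4% higher and 21.5% lower. Libraries lay apart for 7 members higher and 1 lower, where 25.7% and 26% of all genes did. The members' median fold change was 0.83, against -0.03 over all genes tested.

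Plin4 had 17.8, 10.8 and 7.22 CPM in Cold M1, against 1.87, 1.8 and 1.31 CPM in Warm M1, with a fold change of 2.84 ± 0.33 (adjusted p = 0.000286). Plin1, the perilipin that gates lipolysis on the adipocyte droplet, had 4.64, 7.13 and 3.88 CPM in Cold M1, against 0.839, 2.10 and 1.21 CPM in Warm M1 (1.89 ± 0.31, adjusted p = 0.00128). Cfd had 1.39, 2.77 and 1.86 CPM in Cold M1, against 0.233, 0.257 and 0.484 CPM in Warm M1 (2.59 ± 0.44, adjusted p = 0.00144). Its Warm M1 counts were 5, 6 and 10. Every Cold M1 library exceeded every Warm M1 library for these 3 genes, and Plin4 followed the order of the libraries' progenitor share while Plin1 and Cfd did not.

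Cyp2e1 averaged 1.05 CPM in Cold M1 and 0.261 CPM in Warm M1 (1.98 ± 0.41, adjusted p = 0.00363), and Car3 12.8 CPM in Cold M1 and 6.42 CPM in Warm M1 (0.98 ± 0.23, adjusted p = 0.00592). Adipoq, with 1.65, 2.00 and 1.69 CPM in Cold M1 and 1.40, 0.899 and 0.969 CPM in Warm M1, passed narrowly (0.69 ± 0.25, adjusted p = 0.0464). Lep had 3, 8 and 12 counts in Cold M1, against 18, 20 and 12 counts in Warm M1, and passed narrowly too (-1.20 ± 0.44, adjusted p = 0.0437). Neither of the 2 held when a single library was left out in 5 of 6 cases, and DESeq2 gave adjusted p = 0.0578 for Adipoq and 0.0504 for Lep. Cidec (0.39 ± 0.20), Fabp4 (0.27 ± 0.21) and Retn (-0.08 ± 0.45) did not pass. Without Warm M1 library 2, which held 623 CPM of Fabp4, Fabp4 was called (0.68, adjusted p = 0.00106).

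Since Cold M1 libraries carried progenitor RNA, each member's level was set beside the level that the library's progenitor share would give. Taken from the mean of Cold and Warm progenitors, that expectation in Cold M1 was 37.8% to 46.5% of the measured Plin4, 8.37% to 26.5% of Fabp4 and 3.73% to 11.7% of Plin1. It was at most 5.97% of Adipoq and at most 1.97% of Cfd. With the expected progenitor counts taken off, 7 members were higher in Cold M1 and none was lower, where 4321 of 12458 genes were called. Cidec joined (0.73, adjusted p = 0.0172), Lep no longer passed (-0.90, adjusted p = 0.114), Plin4 was at 3.48 and Cfd at 2.91. That mean is 21 CPM for Plin4, although Plin4 was higher in Cold progenitors than in Warm ones. In an alternative chosen after seeing the data, Cold macrophages were therefore set against Cold progenitors, and Warm and bFKB1 macrophages against Warm progenitors. The expectation then was 63.8% to 76.6% of Plin4 in Cold M1, against 13.2% to 61.3% in Warm M1, and in Cold M1 it was 4.32% to 13.1% of Plin1, at most 6.04% of Adipoq and at most 2.39% of Cfd. With it taken off, again 7 members were higher in Cold M1 and none was lower, where 4326 of 12410 genes were called. Plin4 was then at 2.12 (adjusted p = 0.00166), Cidec at 0.78 (adjusted p = 0.015) and Lep at -0.84 (adjusted p = 0.138). The fold change of Plin4 after subtraction thus depended on which progenitors were used. From the mean of Cold and Warm progenitors, the expectation was 0.685% to 2.32% of Cidec in Cold M1 and 0.151% to 0.526% in Warm M1. For Lep it was 0.474% to 5.33% in Cold M1 and 0.0481% to 0.154% in Warm M1. The libraries were normalised anew after each subtraction, and the part of that step in the calls was not tested. Without Cold M1 library 1, which held the most progenitor RNA, 5 members were called, all higher, where 4415 of 13083 genes were called. Plin4 then stood at 2.40. Progenitor markers were higher in Cold M1 for 15 of 17 genes and mast cell markers for 7 of 7 tested. The mast cell markers summed to 24.1 to 44.7 CPM in Cold M1 and 5.04 to 13.7 CPM in Warm M1. Mesothelial markers summed to 7.88 to 30.8 CPM in Cold M1, against 1.68 to 5.31 CPM in Warm M1, with 2 of 4 tested higher, and B cell markers to 2.52 to 3.55 CPM in Cold M1, against 0.484 to 2.01 CPM in Warm M1, with 1 of 3 tested higher. The part of mast, mesothelial and B cells was not tested.

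**Figure D2:**
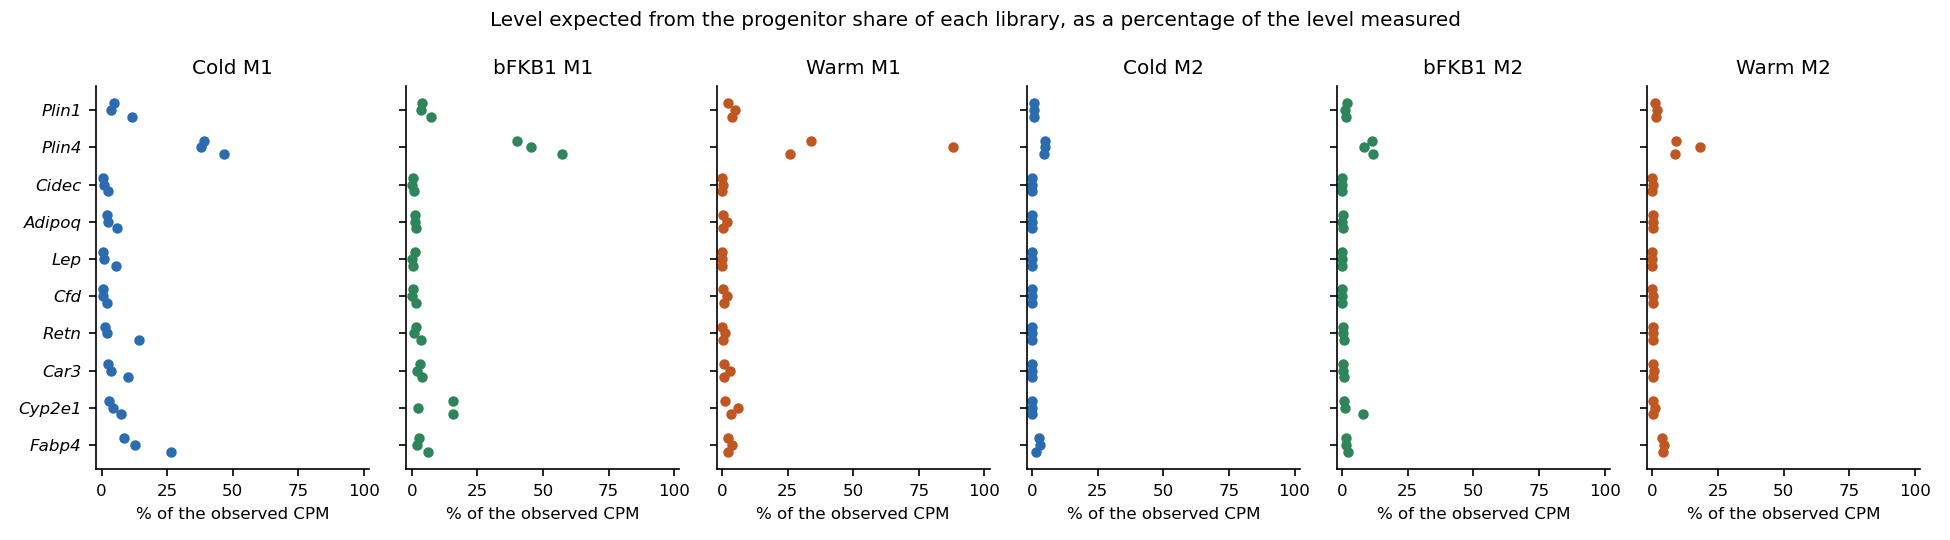
Level expected from the progenitor share of each macrophage library (mean of Cold and Warm progenitors), as a percentage of the measured CPM (x axis), for the 10 members (y axis) in the 6 macrophage groups; each point is a library. Plin4 stands apart in M1, with 37.8% to 46.5% in Cold M1 and up to 88% in Warm M1, while Cidec, Adipoq and Cfd stay at or below 5.97%.

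Of the 23 other adipocyte genes tested in M1, 8 were higher and 3 lower in the cold. Scd1 changed most by p-value, with 32.8 CPM in Cold M1 and 5.10 CPM in Warm M1 (2.68 ± 0.26, adjusted p = 0.000146), followed by the hormone-sensitive lipase Lipe, which was lower (-0.64 ± 0.08, adjusted p = 0.000322). Ces1d (2.11 ± 0.38) and the growth hormone receptor Ghr (2.27 ± 0.45) were higher. Ces1d and Ghr were also among the genes that Warm progenitors held above Warm M1, with Ces1d at 29.3 CPM in Warm progenitors and 0.679 CPM in Warm M1, and Ghr at 60.1 CPM in Warm progenitors and 3.50 CPM in Warm M1.

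Whether cold acted differently in M2 and M1 was asked of the difference between the cold effects, M2 minus M1, given as a description. No member passed by edgeR, where 2.31% of 12981 genes did, 1.11% higher and 1.2% lower. In edgeR 2 members had an unadjusted p under 0.05: Plin4, with a difference of -1.83 ± 0.45, and Plin1, with -1.09 ± 0.44. DESeq2 called 1 member, Plin4, where it called 1482 of 12981 genes. Plin4 passed in edgeR without Cold M1 library 3, where 1188 of 13149 genes did. Plin4 and Plin1 passed without Warm M1 library 2, where 1982 of 13131 genes did. For the other 8, among them Adipoq (0.41 ± 0.34), Cfd (-0.80 ± 0.56), Car3 (-0.11 ± 0.31), Cyp2e1 (0.22 ± 0.60) and Lep (-0.17 ± 0.62), the difference was within 2 SE of 0. This does not show that cold acted alike on them.

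In progenitors, 1 of the 5 members that passed the count filter was called between Cold and Warm. There 34.9% of 12910 genes were called, 18.4% higher and 16.6% lower. Libraries lay apart for 2 members higher (Plin4 and, under the filter, Cyp2e1) and for none lower, where 33% and 17.4% of the genes tested did. Plin4 had 40.8, 22.0 and 27.5 CPM in Cold progenitors, against 12.2, 10.8 and 12.6 CPM in Warm progenitors (1.26 ± 0.20, adjusted p = 0.00787), with no overlap. Plin1 (-0.13 ± 0.29), Adipoq (-0.35 ± 0.63), Car3 (0.19 ± 0.46) and Fabp4 (-0.52 ± 0.24) did not pass. Cyp2e1 was under the filter, with 11, 10 and 10 counts in Cold progenitors and 4, 1 and 3 in Warm progenitors, and Cidec, Lep, Cfd and Retn were under it too. Without Cold progenitor library 2 the count of members called became 3, where 3893 of 13106 genes were called. Without Warm progenitor library 3 it became 2, where 6437 of 13097 genes were called. Among 21 other adipocyte genes tested, 5 were higher and 5 lower, led by Scd1 (0.85), Tusc5 (0.86), Mrap (-0.99) and Agpat2 (-0.43).

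In M2 cells of bFKB1-treated mice, Lep, Cidec, Cyp2e1, Retn and Car3 were lower than in Warm M2, and no member was higher. These 5 stand where 8.26% of 12734 genes were called, 3.01% lower and 5.25% higher. Libraries lay apart for 5 members lower and 1 higher, where 16.1% and 19.7% of all genes did. The members' median fold change was -0.77, against 0 over all genes tested.

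Lep had 0.751, 0.428 and 0.466 CPM in bFKB1 M2, against 3.32, 2.38 and 1.70 CPM in Warm M2, a fold change of -2.18 ± 0.39 (adjusted p = 0.00883). Cidec had 3.47, 4.75 and 3.17 CPM in bFKB1 M2, against 8.36, 5.33 and 8.38 CPM in Warm M2 (-0.97 ± 0.23, adjusted p = 0.0271). Cyp2e1 had 1, 6 and 7 counts in bFKB1 M2, against 23, 12 and 26 counts in Warm M2 (-2.32 ± 0.58, adjusted p = 0.0344). None of these groups overlapped. Retn had 0.235, 0.898 and 0.419 CPM in bFKB1 M2, against 2.00, 1.09 and 1.70 CPM in Warm M2 (-1.61 ± 0.44, adjusted p = 0.0472). Car3 had 6.81, 13 and 7.82 CPM in bFKB1 M2, against 25.0, 12.5 and 22.9 CPM in Warm M2, where bFKB1 library 2 overlapped Warm library 2 (-1.14 ± 0.31, adjusted p = 0.046). Lep kept its call whichever of the 6 libraries was left out, but without bFKB1 M2 library 1 or 3, or Warm M2 library 1 or 3, it was the only member called.

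Retnla, a resistin-like relative of Retn made by alternatively activated macrophages, was far more abundant and also lower on average, at 3790 ± 936 CPM in bFKB1 M2 and 8890 ± 936 CPM in Warm M2. Transcripts of Retn and Retnla share no run of 30 bases, and 3.42% of such runs in Retn occur in any other gene. Adipoq (-0.38 ± 0.31, adjusted p = 0.483) and Cfd (-0.02 ± 0.41, adjusted p = 0.985) did not pass, and neither did Plin1 (-0.56 ± 0.36), Plin4 (-0.58 ± 0.32) or Fabp4 (0.52 ± 0.21), although every bFKB1 M2 library held more Fabp4 than every Warm M2 library. Of the 23 other adipocyte genes tested, 2 were higher, Lpl (0.79 ± 0.11) and the triglyceride lipase Pnpla2 (0.32 ± 0.07), and 2 lower, Fasn (-0.44 ± 0.07) and Dgat2 (-1.17 ± 0.21), which makes triglyceride. Beside these values, mast cell markers summed to 6.94 to 21.3 CPM in bFKB1 M2, against 2.21 to 3.78 CPM in Warm M2, with 2 of 6 tested higher. Endothelial markers summed to 115 to 153 CPM in bFKB1 M2, against 71.8 to 95.7 CPM in Warm M2, with none of 8 called, and progenitor markers to 1010 to 1580 CPM in bFKB1 M2, against 2150 to 3820 CPM in Warm M2, with 1 of 17 lower. The part of these cells was not tested.

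In M1 cells of bFKB1-treated mice, Lep alone passed, 1 of 10 members where 21.6% of 12734 genes were called, 9.45% lower and 12.2% higher. Libraries lay apart for 4 members lower and none higher, where 22.6% and 16.8% of all genes did. Lep had 6, 6 and 1 counts in bFKB1 M1, against 18, 20 and 12 counts in Warm M1 (-1.95 ± 0.48, adjusted p = 0.0162), with no overlap. Without Warm M1 library 1 its adjusted p was 0.0537 and no member passed, where 1449 of 12884 genes did. Without Warm M1 library 2, Fabp4 passed as well (0.43, adjusted p = 0.00711), where 3809 of 12810 genes did. Retn (-1.37 ± 0.54, adjusted p = 0.0912), Car3 (-0.64 ± 0.33, adjusted p = 0.191) and Cidec (-0.55 ± 0.26, adjusted p = 0.152) did not pass, although all their bFKB1 M1 libraries lay below all Warm M1 libraries. Cfd (0.92 ± 0.55), Cyp2e1 (-0.93 ± 0.73), Plin4 (0.33 ± 0.34), Adipoq (-0.29 ± 0.36), Plin1 (-0.11 ± 0.37) and Fabp4 (0.04 ± 0.21) did not pass and overlapped. Fasn (-0.70) and Dgat2 (-0.84) were lower and Pnpla2 (0.48) and Lpl (0.64) higher among the other adipocyte genes, of which 2 were called higher and 4 lower.

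**Figure D3:**
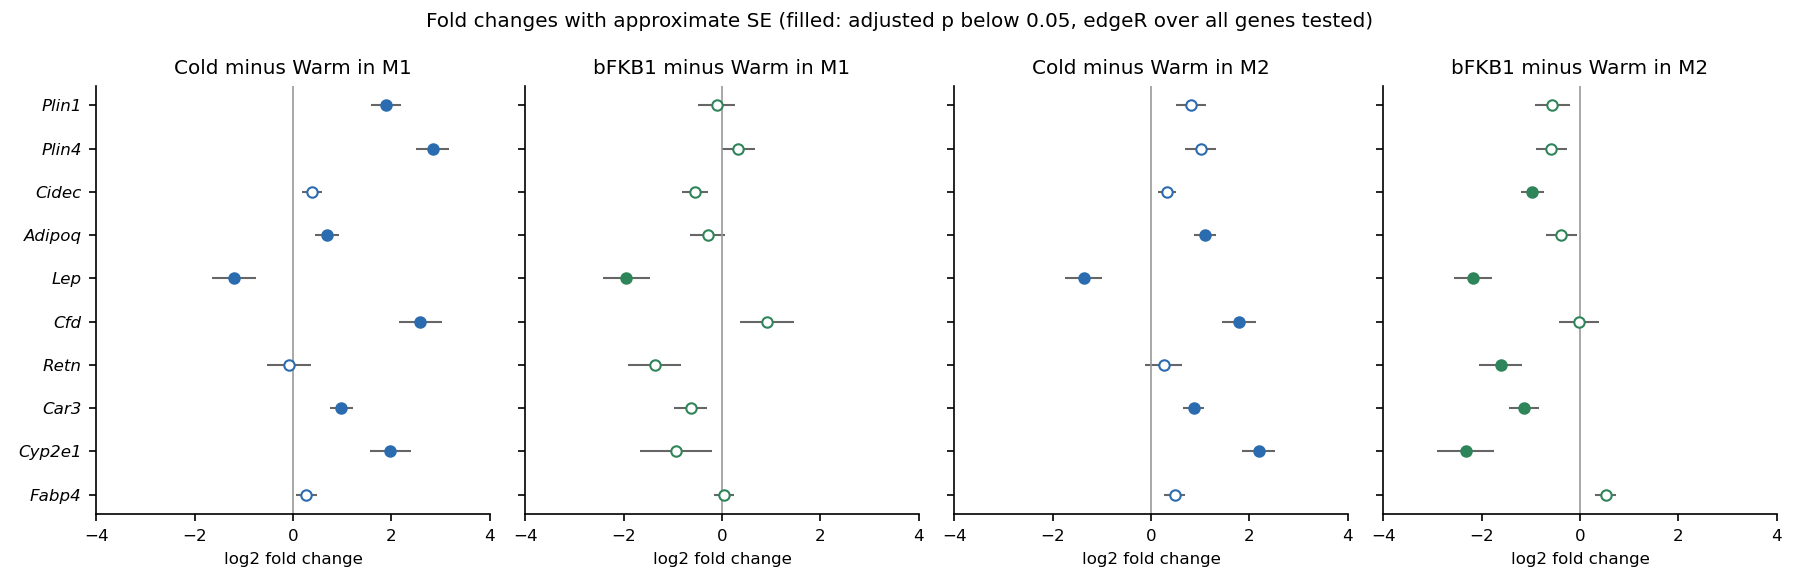
Log2 fold changes (x axis) of the 10 members (y axis) for Cold and for bFKB1 minus Warm in M1 and M2; bars are approximate SEs from the F statistic, and filled points have an adjusted p under 0.05. For Cold minus Warm in M2, which entered the choice of members, the fill is a description only. Lep is filled and left of 0 in all 4 comparisons, which share their Warm libraries. Cfd stands at 2.59 in Cold M1 and 1.79 in Cold M2, and at 0.92 in bFKB1 M1 and -0.02 in bFKB1 M2.

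The Cold and bFKB1 comparisons share their Warm libraries, so their values are only set side by side. In M2, Lep stood at -1.37 in Cold and -2.18 with bFKB1, Cyp2e1 at 2.19 in Cold and -2.32 with bFKB1, Car3 at 0.87 in Cold and -1.14 with bFKB1, and Cfd at 1.79 in Cold and -0.02 with bFKB1. In M1, Lep stood at -1.20 in Cold and -1.95 with bFKB1, and Car3 at 0.98 in Cold and -0.64 with bFKB1.

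Counts of each member were also divided by the Adipoq counts of the same library, which removes how much adipocyte RNA a library holds if a single source gives it. The ratio ranged least for Cidec and Car3: over the 18 macrophage libraries the highest was 2.75 times the lowest for Cidec and 2.87 times for Car3. Groups still lay apart in M2. Cidec counts per Adipoq count were 1.86 to 2.69 in Warm M2, 1.14 to 1.34 in Cold M2 and 1.35 to 1.48 in bFKB1 M2. Those of Car3 were 2.79 to 3.71 in bFKB1 M2, below 4.54 to 5.57 in Cold M2 and 4.38 to 7.35 in Warm M2. In M1 the groups overlapped for both genes. Cyp2e1 ranged 42.6-fold, Fabp4 28.4-fold, Lep 16.2-fold, Plin4 12-fold, Cfd 9.82-fold, Plin1 9.13-fold and Retn 8.84-fold. These ratios were chosen after the levels were known and are given with no test, and ratios with few counts vary by counting alone.

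Lep counts per Adipoq count were 0.115 to 0.145 in Cold M2, 0.122 to 0.308 in bFKB1 M2 and 0.545 to 0.836 in Warm M2. In M1 they were 0.0789 to 0.293 in Cold, 0.0588 to 0.545 in bFKB1 and 0.6 to 0.952 in Warm. Warm lay above Cold and bFKB1 in both populations, with no overlap. Cyp2e1 counts per Adipoq count were 0.468 to 0.818 in Cold M2, 0.0192 to 0.152 in bFKB1 M2 and 0.218 to 0.473 in Warm M2, so bFKB1 stayed below both other groups. Cfd counts per Adipoq count were 0.895 to 1.39 in Cold M2, 0.635 to 0.978 in bFKB1 M2 and 0.436 to 1.09 in Warm M2, with overlap, but 0.842 to 1.39 in Cold M1 against 0.167 to 0.5 in Warm M1, with none. Plin4 counts per Adipoq count were 4.27 to 10.8 in Cold M1 and 0.902 to 2.45 in the 15 other macrophage libraries, beside the progenitor share of Cold M1.

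**Figure D4:**
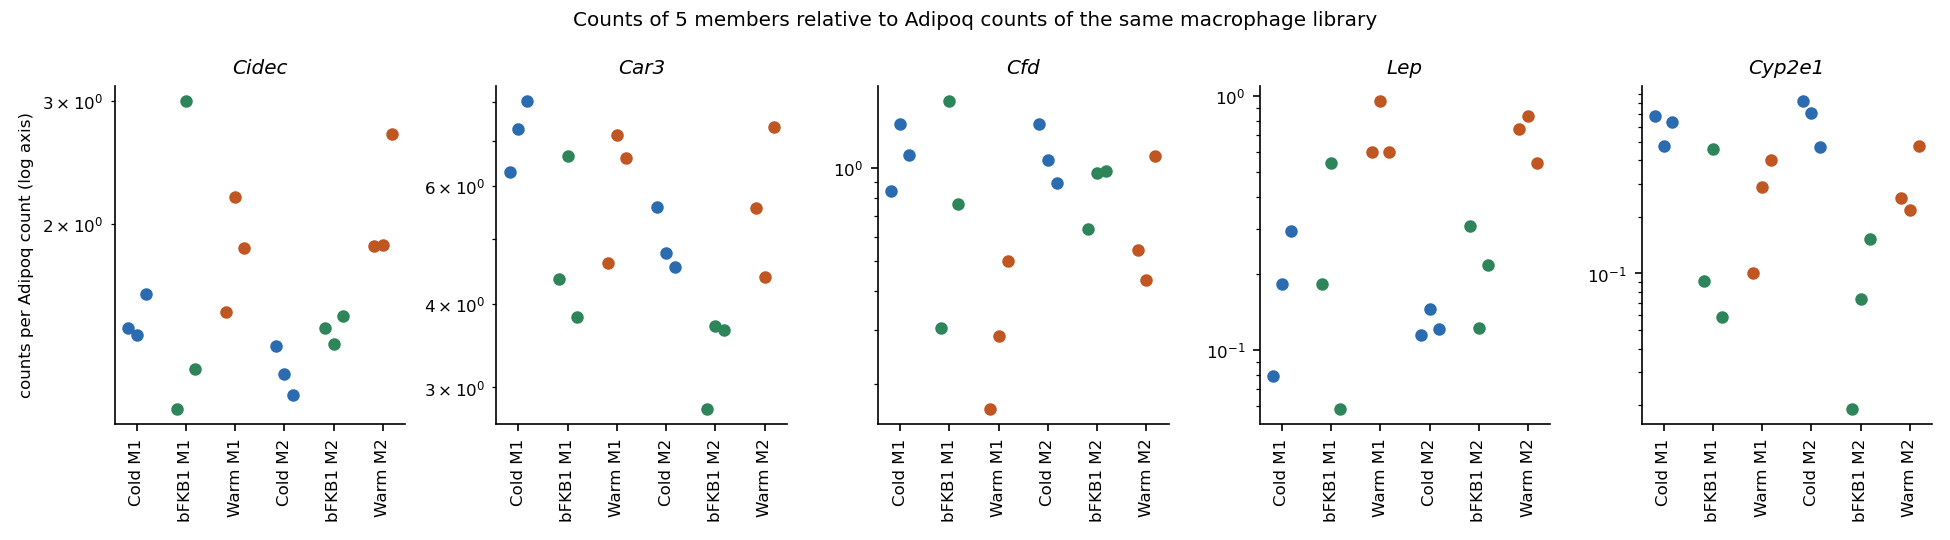
Counts of Cidec, Car3, Cfd, Lep and Cyp2e1 divided by the Adipoq counts of the same library (y axis, log axis, scaled for each gene) in the 6 macrophage groups (x axis); each point is a library. Lep lies at 0.0789 to 0.293 in Cold M1 and M2 and at 0.545 to 0.952 in Warm M1 and M2, and Cyp2e1 is lower in bFKB1 M2 (0.0192 to 0.152) than in Cold M2 and Warm M2.

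Across the 18 macrophage libraries, on log2(CPM + 0.5), the genes most like Adipoq by Pearson's r among 11496 were Sat1, Hmgxb3, Zxdc (each 0.95), Cidec, Nck1, Adnp2, Ncoa1, Zfp758, Zfp943 (each 0.94) and Epc2 (0.93). Cidec was thus the fourth, Car3 the 11th (0.93) and Cfd the 84th (0.90), while Fabp4 had r = -0.63. Apart from Cidec, these genes had means of 10.9 CPM (Zfp758) to 229 CPM (Sat1), and the points share the M1 and M2 sorts, so that a gene higher in M2 than in M1 scores high. Within the 9 M2 libraries r with Adipoq was 0.97 for Plin4, 0.92 for Car3, 0.91 for Plin1 and Cyp2e1, 0.90 for Cfd, 0.86 for Cidec, 0.80 for Retn, 0.15 for Fabp4 and 0.12 for Lep. Within the 9 M1 libraries it was 0.89 for Car3, 0.83 for Plin4, 0.75 for Plin1, 0.74 for Cidec, 0.68 for Cyp2e1, 0.55 for Cfd, 0.37 for Retn, 0.23 for Fabp4 and 0.08 for Lep. Lep and Fabp4 had the lowest r in both populations. As the cold effect in M2 entered the choice of members, r values that span Cold and Warm M2 may follow in part from that choice. They are a description. Most like Fabp4 were Ppfibp1, Tgfbr1, Tbc1d2, Itpr3 and Gngt2 (each 0.93), and most like Cfd were Adnp2, Pck1 (each 0.95), Rad50 (0.94), C87436 and Dusp8 (each 0.92), of which Pck1 is an adipocyte gene of the fixed list.

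Read sharing between genes was limited for the members. No 30-base run of Adipoq, Cidec, Lep, Cfd or Plin4 occurs in another gene's transcripts on either strand, and 0.311% to 5.92% of the runs of Fabp4, Car3, Plin1, Retn and Cyp2e1 do. The exons of Plin4 (chr17:56100591-56109803 in GENCODE M21, GRCm38, minus strand) share 17 of their 5777 bases with the oppositely oriented Hdgfl2, listed as Hdgfrp2 in the tables, and the kit does not mark strand. Plin2, the perilipin of macrophages, was present at 1630 ± 123 CPM in Warm M2, whereas Plin1, Plin4 and Cidec stayed below 20 CPM in every macrophage library.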

How the data were processed

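The authors deposited raw counts per gene, 18 Cold and Warm libraries in 1 table and 6 bFKB1 libraries in another. GSNAP, CASAVA 1.8 and build GRCm38 are named for both and SAMtools for the first, per the submitters' processing notes. For the program that counted reads and its gene models, the name is not given in the sources used here. Cold and Warm libraries were made from poly-A RNA with a kit that does not mark strand, per the labels' protocols, and only the RNA extraction is stated for bFKB1.

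From the counts, 27 rows named as dates (0.148% to 0.192% of counts) were left out. CPM used the remaining total. Tests used edgeR 4.0.16 in R 4.3.3 (TMM, filterByExpr with a minimum count of 10, quasi-likelihood F-test, Benjamini-Hochberg over all genes tested, threshold 0.05) on 12 Cold and Warm macrophage libraries, 12 bFKB1 and Warm macrophage libraries, 6 progenitor libraries or 18 Cold and Warm libraries. DESeq2 1.42.0 and the other alternatives are in the closing section. In simulated counts for Cold minus Warm in M2, 71.1% of 97 genes changed by a log2 of 1 and 98% of 98 genes changed by 2 were recovered among 12824 genes. The changed genes were drawn from all genes tested, so recovery at the members' low levels was not measured. Of the calls 3.51% were false there, and 2.79% to 6.63% over all comparisons simulated. The progenitor share is the median, over 17 markers, of a library's CPM over the mean CPM of all 6 progenitor libraries, and in an alternative added after seeing the data over that of the same condition's progenitors, Warm ones for bFKB1. Replicate numbers come from the titles. They were taken as possible pairs where every same-numbered pair's deviations correlated above 0.1. This held for Warm M1 with Warm M2 (0.17, 0.32 and 0.23), for bFKB1 M1 with bFKB1 M2 (0.41, 0.11 and 0.36), which were not compared, and for no other groups compared. The rule cannot show pairing: differently numbered libraries were not correlated, and Cold M1 with Warm M1, from different mice, reached 0.65 for number 3.

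The members and lists were chosen with earlier results of these data known. Beside the 10 members, the text names up to 4 called genes with the smallest p among 28 other adipocyte genes in each comparison, the nearest genes to Adipoq, Fabp4 and Cfd, marker lists and family relatives. Of the listed markers, Hbb-b1 was not matched to a row.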

Additional observations from a re-analysis of the deposited data

How the results depend on the processing

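The counts of members called kept within 1.5 times their value with DESeq2 size factors in edgeR and with expected progenitor counts taken off in either form, pooled or same-condition progenitors, in every comparison these were run on. The replicate block lowered the count to 3 for Cold M2, where 999 of 12981 genes were called, and to 3 for bFKB1 M2, where 875 of 12734 were. No count filter gave 2 for Cold progenitors, where 4214 of 16525 genes were called. Among the comparisons made, the rule for possible pairs was met only for M1 against M2 in Warm, where the block gave 10 members. That rule does not show that the numbers pair the samples, so the block is only a check in every comparison. DESeq2 called 1 member (Plin4) for the difference of the cold effects, where it called 1482 of 12981 genes. Leaving out 1 library at a time gave 5 to 6 members for Cold M1, 2 to 5 for Cold M2, 0 to 2 for bFKB1 M1 and 1 to 4 for bFKB1 M2. It gave 9 to 10 for M1 against M2, 1 to 3 for Cold progenitors, 6 to 8 and 9 to 9 for progenitors against M1 and M2, and 0 to 2 for the difference of the cold effects. The genes called fell too, from 1312 to between 531 and 937 for Cold M2 and from 1052 to between 394 and 553 for bFKB1 M2.

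Signs turned only for members that were not called. They turned for Retn in Cold M1 with progenitor counts taken off (0.18, and 0.29 with same-condition progenitors), for Cfd in bFKB1 M2 with no filter (0), for Car3 in Cold progenitors with the replicate block (-0.02) and for Cyp2e1 in the difference of the cold effects with progenitor counts taken off (-0.06, and -0.07 with same-condition progenitors), where Retn turned too with same-condition progenitors (-0.03). With 1 library left out, the fold changes whose sign turned ranged as follows. In Cold progenitors, Adipoq lay between -0.92 and 0.02, Car3 between -0.64 and 0.46, and Plin1 between -0.43 and 0. In bFKB1 M1, Plin1 lay between -0.37 and 0.30, Plin4 between -0.14 and 0.62, and Fabp4 between -0.13 and 0.43. Cfd in bFKB1 M2 lay between -0.39 and 0.35, and Retn in Cold M1 between -0.33 and 0.29. In the difference of the cold effects, Car3 lay between -0.37 and 0.05, Cidec between -0.27 and 0.02, Cyp2e1 between -0.18 and 0.50, Fabp4 between -0.19 and 0.38, Lep between -0.54 and 0.24, and Retn between -0.03 and 0.60. The cause was not tested.

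Depth limits Lep, Retn and Cyp2e1 most, at 1 to 20 counts in many M1 and bFKB1 libraries. It limits Cfd as well in Warm M1, at 5 to 10 counts, and in bFKB1 M1, at 10 to 18 counts. Groups of 3 pools, an unknown gate and the separate bFKB1 table limit the rest.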
